A study of Pogona vitticeps with 24 samples.

Results

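Solute carriers are membrane proteins that move ions, metals, sugars, amino acids, vitamins and metabolites across the cell surface and the membranes of organelles, and their genes are numbered by family (*SLC1*, *SLC2* and so on) and by member within a family. The members described here are all gene symbols made of SLC, a family number, the letter A and a member number, at the start of the symbol. Of 11126 genes with a value, 156 met this rule, in 39 families. Of these, 30 belong to *SLC25*, the mitochondrial carrier family, which is described apart, and 126 to the other families. The RefSeq annotation of the species holds 301 symbols of this form, 43 of them in *SLC25*, so not all have a value. *SLC2A1* and *SLC7A11* are among the well-known carriers without one. The rule also takes 5 symbols that name proteins other than carriers (*SLC2A4RG*, *SLC4A1AP*, *SLC7A6OS*, *SLC9A3R1* and *SLC9A3R2*). A further 16 symbols that begin with SLC or SLCO do not have this form and were not counted.

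RNA was sequenced from tooth-forming tissue of hatchlings of the bearded dragon *Pogona vitticeps*, a lizard with replaceable teeth set on the inner side of the jaw at the front (pleurodont) and with permanent teeth fused to its crest behind them (acrodont). Dental epithelium and the mesenchyme around it were cut out by laser at a posterior and an anterior jaw position, which are acrodont and pleurodont in wild types (WT). They came from 3 *Sca*/+ animals, which carry 1 mutated copy of the ectodysplasin gene *EDA* and have reduced scales, and from 3 WT animals. This makes 8 groups of 3 samples: *Sca*/+ and WT, each with epithelium and mesenchyme at both positions. A *Sca*/+ sample is named by its place along the jaw, because its tooth type was not known exactly when it was cut. By eye, the front of each mutant dentary had looked abnormal.

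Each group has 1 deposited value per gene, in log2 CPM (CPM are read counts relative to the total of the library), so no difference has a replicate error and no gene was tested. WT posterior epithelium was not used, because its column holds a running series of numbers in place of expression, which leaves 7 groups. In these the values are whole multiples of a smallest step, with 789353 steps in all in *Sca*/+ anterior mesenchyme and 3264515 in *Sca*/+ posterior epithelium, the extremes of the 7. CPM of the 11126 genes summed to 861122 in WT anterior epithelium and 1047960 in WT posterior mesenchyme, again the extremes. The values are therefore not plain shares of a library. The lowest value in each of the 7 lay between 1.13 and 1.85 CPM, so genes without reads in any 1 of them have no value here. The range given in parentheses with a log2 difference is its exact 95% interval, made from the steps. Intervals cover counting error only, not the spread between animals, and the median member had between 23.5 and 79 steps in a group. A gene is written as higher or lower where 2 groups differed by at least 1 log2 unit, which is 2-fold. The labels of the tissues were checked against marker lists. Epithelium had higher levels of 13, 11 and 15 of the 19 epithelial markers in the *Sca*/+ posterior, *Sca*/+ anterior and WT anterior pairs, and lower levels of 30, 29 and 30 of the 32 mesenchymal markers. The mesenchymes still held epithelial markers, which summed to 6701, 8516 and 5548 CPM there, against 19306, 18909 and 14880 CPM in the epithelium of these pairs.

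Solute carriers fall into a few working groups. Chloride, bicarbonate and proton carriers (*SLC4*, *SLC9*, *SLC12*, *SLC26*) set cell volume and pH and, in secretory and mineralizing epithelia, carry the ions that fluid and mineral follow. Amino acid, sugar and monocarboxylate carriers (*SLC1*, *SLC2*, *SLC7*, *SLC16*, *SLC38*) set how a cell feeds its metabolism and disposes of lactate, and metal carriers (*SLC30*, *SLC39*, *SLC40*) supply and remove zinc and iron. In teeth, ion carriers are best known from the ameloblasts that neutralize acid while enamel mineral forms.

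Of the 156 members, 140 averaged 3 log2 CPM or more over the 7 groups and were kept (27 of *SLC25*, 113 others). The members next to this limit were *SLC39A3* (2.95) and *SLC16A10* (2.93) below it and *SLC4A11* (3.00) and *SLC2A10* (3.02) above it. Since the limit is on the mean of the 7 groups, a gene of low level can be kept through the groups in which it is high. Such members are named below where they enter a count of members shared by several comparisons. They were not sought for the counts of single comparisons, which can therefore hold such members. Levels of the members kept varied more across the groups than those of genes at large. The distance between a member's highest and lowest group had a median of 1.72 log2 units, against 1.48 over all 9987 genes kept, and 42.1% of members covered at least 2 log2 units, against 28.4% of all genes. Such distances also hold counting error, which is larger for genes with fewer steps, and the 2 sets were not matched for level. The wider spread was in the families outside *SLC25*, whose median distance was 1.81, against 1.30 in *SLC25*. More members had their highest value in WT anterior mesenchyme than in any other group (26 of 140, 18.6%, against 11.3% of all genes). More had their lowest value in *Sca*/+ posterior mesenchyme than elsewhere (34 of 140, 24.3%, against 15.0% of all genes). The same group also held the highest value of 24 members (17.1%, against 13.0% of all genes).

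The first question the design asks is what 1 mutated copy of *EDA* goes with in each tissue. In *Sca*/+ anterior epithelium 14 of 140 members were higher and 19 lower than in WT (10.0% and 13.6%), where 12.2% of all genes were higher and 10.0% lower. *Sca*/+ anterior mesenchyme had 16 members higher and 21 lower (11.4% and 15.0%), against 11.5% and 8.37% of all genes. *Sca*/+ posterior mesenchyme had 12 higher and 23 lower (8.57% and 16.4%), against 8.82% and 8.13% of all genes. The share of members that were lower was thus above that of all genes in each of the 3 tissues, most in the mesenchymes, while the share that were higher was at or below it. The widest of these gaps depended on the filter. Among the 62 members that averaged 5 log2 CPM or more, *Sca*/+ posterior mesenchyme had 3 higher and 2 lower (4.84% and 3.23%), against 5.51% and 3.15% of all genes. Medians lay slightly under those of all genes, at -0.18, -0.05 and -0.15 log2 units for members against 0.00, 0.04 and 0.00. These tissues are bulk material, in which fewer cells of a type and less RNA per cell cannot be told apart.

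No member was past 1 log2 unit in the same direction in all 3 genotype comparisons, where 1.02% of all genes were higher and 0.320% lower in all. By sign alone, 34 of 140 members were below WT in all 3 tissues (24.3%, against 18.5% of all genes), and none of these 34 was an *SLC25* gene. A further 18 were above WT in all 3 (12.9%, against 20.6% of all genes), 6 of them in *SLC25*. The families outside *SLC25* did not all lie below WT. Those of vitamins, nucleosides, lipids and others (15 kept) had medians of 0.19, 0.19 and -0.34 in anterior epithelium and the anterior and posterior mesenchymes. Inorganic ion carriers had -0.46, -0.31 and -0.27 in these tissues, and carriers of organic anions and cations had -0.18, -0.68 and -0.67. Both sets lay below all genes in each tissue, as did carriers of amino acids and peptides, of metals, and of sugars and nucleotide sugars. For the last 2 the gap was small in anterior mesenchyme, with medians of -0.01 and -0.07 against 0.04 for all genes. There 9 of 18 carriers of metals and 8 of 16 of sugars and nucleotide sugars were below WT.

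**Figure D1:**
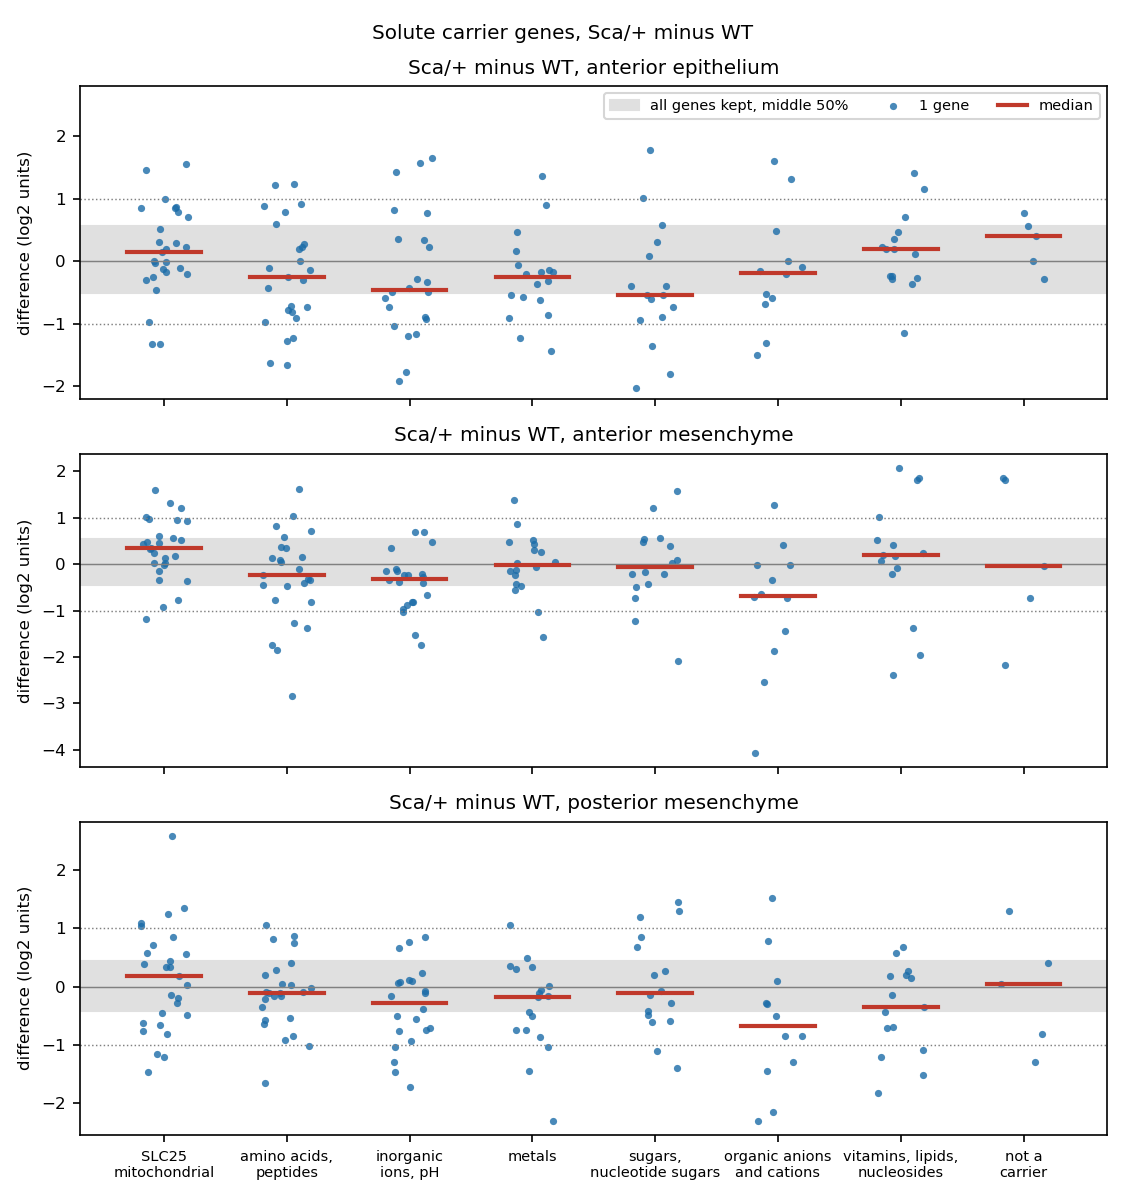
Difference of *Sca*/+ minus WT in log2 units (vertical axis) for each of the 140 members kept, by what the family carries, for anterior epithelium, anterior mesenchyme and posterior mesenchyme from top to bottom. Points are genes, red bars medians, the grey band the middle 50% of all genes kept, and dotted lines mark 1 log2 unit in either direction. Medians of *SLC25* lie above 0 in all 3 tissues (0.15, 0.36 and 0.18), and single genes outside *SLC25* reach down to -4.07 in anterior mesenchyme.

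The second question is what separates the jaw positions. In WT posterior mesenchyme 19 members were higher and 11 lower than in WT anterior mesenchyme (13.6% and 7.86%), against 9.15% and 7.97% of all genes. Between the *Sca*/+ mesenchymes the posterior site had 16 members higher and 20 lower (11.4% and 14.3%), against 8.34% and 10.4% of all genes. *Sca*/+ posterior epithelium had 13 higher and 17 lower than *Sca*/+ anterior epithelium (9.29% and 12.1%), against 7.02% and 6.68% of all genes. The third comparison sets the compartments against each other. In the WT anterior pair 18 members were higher and 19 lower in epithelium than in mesenchyme (12.9% and 13.6%), against 8.66% and 12.7% of all genes. In the *Sca*/+ anterior pair 21 were higher and 22 lower (15.0% and 15.7%), against 11.5% and 14.3%, and in the *Sca*/+ posterior pair 21 were higher and 25 lower (15.0% and 17.9%), against 12.1% and 13.7%. Shares near those of all genes, such as the members lower in epithelium in the anterior pairs, describe genes in general and not carriers.

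Among the ion carriers, 3 members were higher in posterior than in anterior mesenchyme of both genotypes and had their highest levels there. *SLC12A2*, which brings sodium, potassium and chloride into cells and loads secretory cells with chloride, had 1298 and 1364 CPM in *Sca*/+ and WT posterior mesenchyme, against 96.3 and 188 CPM in *Sca*/+ and WT anterior mesenchyme, and 127, 98.2 and 202 CPM in *Sca*/+ posterior, *Sca*/+ anterior and WT anterior epithelium. Both posterior mesenchymes stood far above the other 5 groups, of which WT anterior epithelium was the highest. The posterior minus anterior difference was 3.75 (3.42 to 4.11) log2 units in *Sca*/+ mesenchyme and 2.86 (2.67 to 3.06) in WT mesenchyme, whereas *Sca*/+ minus WT was -0.07 (-0.17 to 0.02) in posterior mesenchyme. In anterior tissue *Sca*/+ minus WT was -1.04 (-1.31 to -0.77) in epithelium and -0.96 (-1.36 to -0.59) in mesenchyme. Ranked by the smaller of the 2 posterior minus anterior differences, *SLC12A2* was number 5 of 9987 genes. In *Sca*/+ epithelium posterior minus anterior was 0.37 (0.12 to 0.62).

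*SLC4A4*, the electrogenic carrier that takes up bicarbonate with sodium, followed the same pattern at a lower level. It had 143 and 133 CPM in *Sca*/+ and WT posterior mesenchyme, against 18.2 and 23.8 CPM in *Sca*/+ and WT anterior mesenchyme, and 20.2, 15.1 and 34.0 CPM in *Sca*/+ posterior, *Sca*/+ anterior and WT anterior epithelium. Its posterior minus anterior differences were 2.97 (2.20 to 3.86) in *Sca*/+ and 2.49 (1.93 to 3.08) in WT mesenchyme (number 10 of 9987), and its epithelium minus mesenchyme difference was -2.82 (-3.24 to -2.42) in the *Sca*/+ posterior pair. *SLC4A11*, a family member that moves protons or ammonia and is mutated in a human corneal dystrophy, had 20.4 and 38.9 CPM in *Sca*/+ and WT posterior mesenchyme, against 2.60 and 8.66 CPM in *Sca*/+ and WT anterior mesenchyme, and 5.29, 2.44 and 9.21 CPM in *Sca*/+ posterior, *Sca*/+ anterior and WT anterior epithelium. Again both posterior mesenchymes were the highest groups, with differences of 2.97 (1.01 to 6.07) in *Sca*/+ and 2.17 (1.22 to 3.23) in WT. *SLC4A11* was kept only through these 2 groups, since the other 5 averaged 2.28 log2 CPM, under the limit, so no rank is given for it. In anterior tissue *SLC4A11* was lower in *Sca*/+ than in WT, with differences of -1.92 (-3.76 to -0.34) in epithelium and -1.74 (-4.94 to 0.43) in mesenchyme, of which the second interval includes 0 at these few counts.

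**Figure D2:**
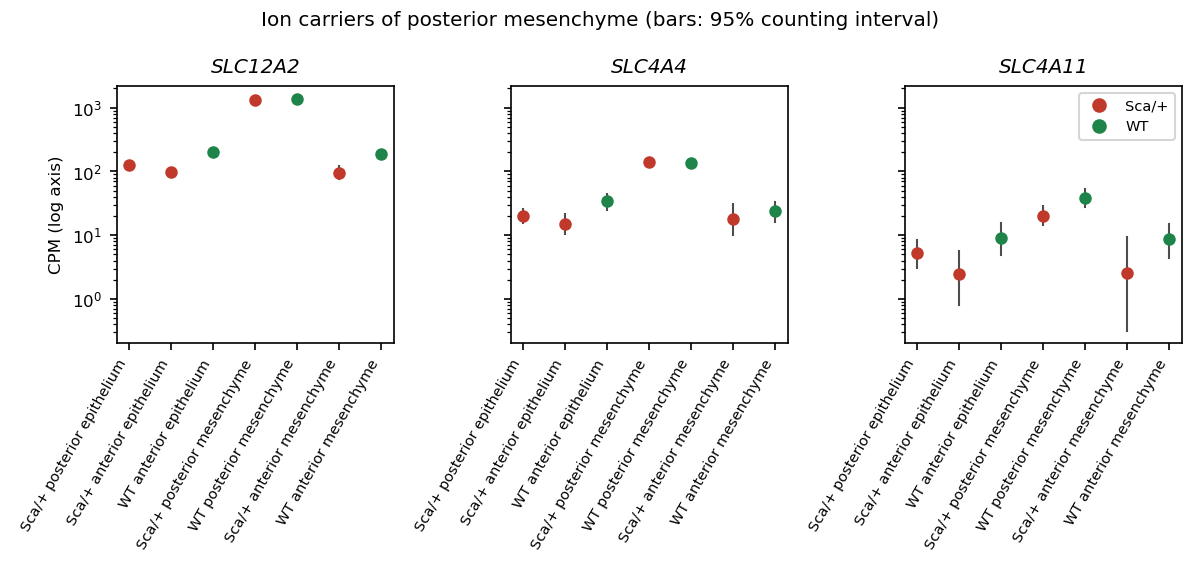
Level of *SLC12A2*, *SLC4A4* and *SLC4A11* in CPM (vertical log axis) in the 7 groups, red for *Sca*/+ and green for WT, with the 95% counting interval as a bar. The 2 posterior mesenchymes, in the middle of each panel, lie above the other 5 groups, at 1298 and 1364 CPM for *SLC12A2* in *Sca*/+ and WT.

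Partners of these carriers were in a list of pumps and of regulators. *ATP1B1*, a subunit of the sodium pump whose gradient drives *SLC12A2*, had 252 and 313 CPM in *Sca*/+ and WT posterior mesenchyme, against 46.8 and 79.4 CPM in *Sca*/+ and WT anterior mesenchyme, with differences of 2.43 (1.93 to 2.96) and 1.98 (1.67 to 2.30). *STK39*, a kinase that switches *SLC12A2* on, was at 31.7 and 81.6 CPM in *Sca*/+ and WT posterior mesenchyme, against 15.6 and 39.0 CPM in the anterior ones. Its *Sca*/+ posterior value lay below its WT anterior value. The whole list of 17 carrier partners differed little by position. It summed to 1186 and 1202 CPM in *Sca*/+ and WT posterior mesenchyme, against 1090 and 1156 CPM in the anterior ones. None of the other 7 pumps kept was higher in both posterior mesenchymes, and the median of all 8 was -0.10 in *Sca*/+ and -0.10 in WT mesenchyme. Another 3 genes were chosen after their values were seen: the potassium channel *KCNN4*, the chloride channel *ANO1* and the kinase *WNK3*. Their likeness to *SLC12A2* was thus known beforehand and is not a separate observation. *KCNN4* had 44.2 and 54.7 CPM in *Sca*/+ and WT posterior mesenchyme, against 2.60 and 1.44 CPM in *Sca*/+ and WT anterior mesenchyme. It averaged under the limit of 3 log2 CPM over the 7 groups, and its anterior mesenchyme values rest on very few steps. *ANO1* had 122 and 121 against 31.2 and 29.6 CPM in these groups, and *WNK3* 169.9 and 223 against 22.1 and 31.8 CPM. In *Sca*/+ posterior, *Sca*/+ anterior and WT anterior epithelium *KCNN4* had 6.22, 6.35 and 4.96 CPM. There *ANO1* had 12.1, 27.8 and 53.1 CPM and *WNK3* 14.0, 7.33 and 13.5 CPM.

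Markers of other cell types moved with position too. The summed level of the 2 skeletal muscle markers was 286 and 319 CPM in *Sca*/+ and WT posterior mesenchyme, against 26.0 and 13.7 CPM in the anterior ones, and that of 3 nerve and glia markers was 1753 and 1523 CPM against 679 and 406 CPM. The 5 bone and dentin markers with a value, of 12 listed, summed to 5447 and 3701 CPM in *Sca*/+ and WT posterior mesenchyme, against 2061 and 1480 CPM in the anterior ones. The 11 endothelial markers with a value summed to 2124 and 3192 CPM against 1826 and 1475 CPM. The summed level of 20 epithelial markers was not raised, at 6701 and 4417 CPM in *Sca*/+ and WT posterior mesenchyme, against 8516 and 5548 CPM in *Sca*/+ and WT anterior mesenchyme. Of 16 muscle markers 2 have a value, and of 12 nerve and glia markers 3. Their part in the levels of *SLC12A2*, *SLC4A4* and *SLC4A11* was not tested. No list of gland markers was used, and whether gland tissue was cut out with the posterior mesenchymes was not tested.

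Besides these 3, another 4 members were higher in posterior than in anterior mesenchyme of both genotypes (7 of 140, 5.0%, against 1.83% of all genes, with *SLC4A11* kept only through its high groups), and none was lower in both (1.83% of all genes). *SLC35A3*, which carries UDP-N-acetylglucosamine into the Golgi, had 32.3 and 26.9 CPM in *Sca*/+ and WT posterior mesenchyme, against 6.50 and 2.17 CPM in *Sca*/+ and WT anterior mesenchyme, and 18.7, 12.7 and 12.0 CPM in *Sca*/+ posterior, *Sca*/+ anterior and WT anterior epithelium. Its anterior mesenchymes were the lowest groups. *SLC29A1*, a nucleoside carrier of the cell surface, had 222 and 247 CPM in *Sca*/+ and WT posterior mesenchyme, against 111 and 106 CPM in *Sca*/+ and WT anterior mesenchyme, and 80.2, 45.4 and 39.0 CPM in *Sca*/+ posterior, *Sca*/+ anterior and WT anterior epithelium. The differences were 2.31 (1.01 to 3.99) in *Sca*/+ and 3.63 (1.94 to 5.99) in WT for *SLC35A3*, and 1.01 (0.66 to 1.36) and 1.22 (0.92 to 1.52) for *SLC29A1*. *SLC22A23*, a carrier of unknown substrate, and *SLC6A4*, the serotonin carrier, were the others. *SLC22A23* had 34.0 and 41.7 CPM in *Sca*/+ and WT posterior mesenchyme, against 2.60 and 15.2 CPM in *Sca*/+ and WT anterior mesenchyme, and 10.3, 25.9 and 29.8 CPM in *Sca*/+ posterior, *Sca*/+ anterior and WT anterior epithelium. *SLC6A4* had 18.1 and 23.2 CPM in *Sca*/+ and WT posterior mesenchyme, against 3.90 and 10.1 CPM in *Sca*/+ and WT anterior mesenchyme, and 8.40, 18.1 and 7.79 CPM in *Sca*/+ posterior, *Sca*/+ anterior and WT anterior epithelium. For both genes *Sca*/+ anterior mesenchyme was the lowest of the 7 groups. Posterior minus anterior was 3.71 (1.79 to 6.79) in *Sca*/+ and 1.46 (0.68 to 2.28) in WT mesenchyme for *SLC22A23*, and 2.22 (0.54 to 4.57) and 1.20 (0.20 to 2.25) for *SLC6A4*.

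In the 2 *Sca*/+ tissues together, position gave 2 members that were higher at the posterior site in epithelium and in mesenchyme (1.43%, against 1.21% of all genes) and 4 that were lower in both (2.86%, against 1.79%). These shares are near the background. *SLC9A9*, a sodium/proton exchanger of endosomes, was higher in both and had 56.6 and 53.8 CPM in *Sca*/+ and WT posterior mesenchyme, against 26.0 and 31.8 CPM in *Sca*/+ and WT anterior mesenchyme, and 18.7, 5.37 and 18.4 CPM in *Sca*/+ posterior, *Sca*/+ anterior and WT anterior epithelium. It was lowest in *Sca*/+ anterior epithelium, -1.78 (-2.94 to -0.71) log2 units from WT. *SLC4A11* was the other member that was higher, again kept only through its high groups. Lower in both were *SLC22A15*, *SLC25A32* and 2 members chosen after their values were seen, *SLC37A1* and *SLC9A7*. *SLC9A7*, an exchanger of the Golgi, had 19.3 and 31.5 CPM in *Sca*/+ and WT posterior mesenchyme, against 53.3 and 38.2 CPM in *Sca*/+ and WT anterior mesenchyme, and 32.0, 69.8 and 94.2 CPM in *Sca*/+ posterior, *Sca*/+ anterior and WT anterior epithelium.

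Other acid-base and ion carriers differed by genotype. *SLC4A2*, which exchanges chloride for bicarbonate, had 61.0, 46.8 and 39.1 CPM in *Sca*/+ anterior epithelium and the anterior and posterior mesenchymes, against 22.7, 28.9 and 36.1 CPM in the same WT tissues, and 43.2 CPM in *Sca*/+ posterior epithelium. The difference was 1.43 (0.86 to 2.04) in anterior epithelium. WT anterior epithelium was its lowest group. *SLC9A8*, a Golgi exchanger, had 38.1, 16.9 and 7.36 CPM in *Sca*/+ anterior epithelium and the anterior and posterior mesenchymes, against 32.6, 29.6 and 24.1 CPM in the same WT tissues, and 23.3 CPM in *Sca*/+ posterior epithelium. Its *Sca*/+ value was lower in posterior mesenchyme (-1.71, -2.79 to -0.70). *SLC4A7*, a bicarbonate carrier named after its values were seen, was below WT in all 3 tissues, with 57.6, 87.2 and 36.8 CPM in *Sca*/+ anterior epithelium and the anterior and posterior mesenchymes, against 107, 115 and 102 CPM in the same WT tissues, and 42.9 CPM in *Sca*/+ posterior epithelium. The differences for *SLC4A7* were -0.89 (-1.25 to -0.54), -0.40 (-0.83 to 0.02) and -1.47 (-1.93 to -1.01). The potassium-chloride exporter *SLC12A7*, which lets cells shrink, had 101, 70.2 and 64.6 CPM in *Sca*/+ anterior epithelium and the anterior and posterior mesenchymes, against 166, 128 and 69.5 CPM in the same WT tissues, and 86.5 CPM in *Sca*/+ posterior epithelium. This gene was below WT by 0.73 and 0.87 log2 units in the anterior tissues. The 5 kept members of *SLC12* and the 4 of *SLC4* had medians of 0.34 and -1.03 in anterior epithelium, -0.87 and -0.39 in anterior mesenchyme, and 0.07 and -0.42 in posterior mesenchyme.

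*SLC24A2*, which exports calcium in exchange for sodium with potassium, and *SLC41A1*, a magnesium carrier, had opposite patterns in *Sca*/+ epithelium. *SLC24A2* had 28.3 CPM in *Sca*/+ posterior epithelium, against 5.86 CPM in *Sca*/+ anterior epithelium (2.27, 1.40 to 3.28 log2 units), with 13.5 CPM in WT anterior epithelium and 20.8 to 43.6 CPM in mesenchyme. *SLC41A1* had 11.2 CPM in *Sca*/+ posterior epithelium, against 33.7 CPM in *Sca*/+ anterior epithelium (-1.59, -2.21 to -0.99). The phosphate carriers of the cell surface, *SLC20A1* and *SLC20A2*, were split by compartment. *SLC20A2* had 187, 105 and 149 CPM in *Sca*/+ posterior, *Sca*/+ anterior and WT anterior epithelium, against 79.9, 66.3 and 52.0 CPM in the mesenchyme beside each, and 44.5 CPM in WT posterior mesenchyme. Epithelium minus mesenchyme was 1.23 (0.96 to 1.50), 0.67 (0.22 to 1.14) and 1.52 (1.12 to 1.92). *SLC20A1* lay below mesenchyme in the epithelium of each pair by less than 1 log2 unit (25.8 to 58.5 CPM over the 7 groups). *SLC26A2*, the sulfate carrier that cartilage needs for its matrix, was higher in epithelium in all 3 pairs, with 33.9, 57.6 and 87.1 CPM in *Sca*/+ posterior, *Sca*/+ anterior and WT anterior epithelium, against 16.4, 20.8 and 24.5 CPM in the mesenchyme beside each, and 24.1 CPM in WT posterior mesenchyme.

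Amino acid carriers included several that were highest in WT anterior tissue. *SLC1A2*, a glutamate carrier known from glia, had 16.1, 35.1 and 21.0 CPM in *Sca*/+ anterior epithelium and the anterior and posterior mesenchymes, against 49.6, 118 and 22.2 CPM in the same WT tissues, and 6.22 CPM in *Sca*/+ posterior epithelium. WT anterior mesenchyme was the highest group and *Sca*/+ posterior epithelium the lowest. *Sca*/+ minus WT was -1.62 (-2.26 to -1.00) in anterior epithelium, -1.75 (-2.40 to -1.16) in anterior mesenchyme and -0.09 (-0.87 to 0.72) in posterior mesenchyme. Posterior minus anterior was -2.41 (-3.09 to -1.79) in WT mesenchyme and -1.37 (-2.25 to -0.53) in *Sca*/+ epithelium. *SLC1A5*, which takes up glutamine, had 68.9, 83.3 and 43.0 CPM in *Sca*/+ anterior epithelium and the anterior and posterior mesenchymes, against 75.8, 147 and 50.1 CPM in the same WT tissues, and 54.1 CPM in *Sca*/+ posterior epithelium. Its level was lower in posterior than in anterior WT mesenchyme (-1.55, -2.01 to -1.11). The value of WT anterior mesenchyme enters both the genotype and the position comparison, so the 2 differences are not separate observations.

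*SLC7A5*, which imports leucine and other large neutral amino acids as a partner of *SLC3A2*, had 16.6, 3.90 and 9.63 CPM in *Sca*/+ anterior epithelium and the anterior and posterior mesenchymes, against 14.2, 28.1 and 4.63 CPM in the same WT tissues, and 4.04 CPM in *Sca*/+ posterior epithelium. In WT mesenchyme the posterior value was lower (-2.60, -4.30 to -1.26), and in anterior mesenchyme *Sca*/+ was lower than WT (-2.85, -5.19 to -1.20). Both differences are against WT anterior mesenchyme, without which the mean of *SLC7A5* over the remaining groups was under the limit of 3 log2 CPM. Its *Sca*/+ anterior mesenchyme value rests on very few steps. *Sca*/+ posterior epithelium was also lower than *Sca*/+ anterior epithelium (-2.04, -3.08 to -1.08). *SLC3A2*, the heavy chain, had the same sign in these 3 comparisons and stayed within 1 log2 unit. It had 163, 63.7 and 86.7 CPM in *Sca*/+ anterior epithelium and the anterior and posterior mesenchymes, against 88.5, 86.6 and 51.9 CPM in the same WT tissues, and 113 CPM in *Sca*/+ posterior epithelium. Posterior minus anterior was -0.74 (-1.22 to -0.27) in WT mesenchyme and -0.53 (-0.74 to -0.31) in *Sca*/+ epithelium. Its *Sca*/+ minus WT difference was 0.88 (0.58 to 1.19) in anterior epithelium, -0.44 (-0.95 to 0.05) in anterior mesenchyme and 0.74 (0.29 to 1.21) in posterior mesenchyme. *SLC7A8*, the other leucine carrier that binds this chain and was picked out after its values were seen, was above WT in all 3 tissues. It had 153, 97.6 and 103 CPM in *Sca*/+ anterior epithelium and the anterior and posterior mesenchymes, against 81.5, 47.6 and 77.9 CPM in the same WT tissues, and 191 CPM in *Sca*/+ posterior epithelium. Its differences were 0.91 (0.60 to 1.23), 1.03 (0.54 to 1.53) and 0.40 (0.02 to 0.79).

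*SLC38A2*, a sodium-coupled carrier of alanine and glutamine that many cells induce when amino acids run short, had 65.0, 65.0 and 73.7 CPM in *Sca*/+ anterior epithelium and the anterior and posterior mesenchymes, against 152, 157 and 132 CPM in the same WT tissues, and 31.7 CPM in *Sca*/+ posterior epithelium. All 3 *Sca*/+ values were below their WT counterparts, with differences of -1.22 (-1.55 to -0.90), -1.27 (-1.75 to -0.83) and -0.84 (-1.19 to -0.48) log2 units, and *Sca*/+ posterior epithelium was the lowest group. *SLC38A1*, which lies close to it on the same chromosome in the RefSeq annotation, stayed within 1 log2 unit in the same 3 comparisons. *SLC38A9*, a lysosomal carrier that senses arginine, had 19.3, 10.3 and 17.0 CPM in *Sca*/+ posterior, *Sca*/+ anterior and WT anterior epithelium, against 19.3, 37.7 and 52.7 CPM in the mesenchyme beside each, and 38.9 CPM in WT posterior mesenchyme. It was lower in epithelium in the anterior pairs, with differences of -1.88 (-2.76 to -1.02) in *Sca*/+ and -1.63 (-2.36 to -0.95) in WT. The 6 kept members of *SLC38* had medians of -0.75, -0.03 and -0.35 in the genotype comparisons of anterior epithelium, anterior mesenchyme and posterior mesenchyme, with 5, 3 and 5 of 6 below 0. Of 9987 genes, 4962, 4733 and 4999 were below 0. Genes of the amino acid stress response, a list of 15 kept, had 1, 1 and 0 higher and 0, 1 and 0 lower in *Sca*/+ in these tissues (6.67%, 6.67% and 0% higher and 0%, 6.67% and 0% lower, against 12.2%, 11.5% and 8.82% of all genes higher and 10.0%, 8.37% and 8.13% lower). Their medians were -0.07, -0.21 and -0.02.

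In *SLC6*, the carriers driven by sodium and chloride, *SLC6A12* differed by compartment and *SLC6A8* by genotype. *SLC6A12*, which takes up betaine and GABA, was low in every epithelium, with 4.67, 8.30 and 3.54 CPM in *Sca*/+ posterior, *Sca*/+ anterior and WT anterior epithelium, against 50.4, 59.8 and 19.5 CPM in the mesenchyme beside each, and 28.7 CPM in WT posterior mesenchyme. Epithelium minus mesenchyme was -3.43 (-4.33 to -2.64), -2.85 (-3.75 to -2.02) and -2.46 (-4.19 to -1.06) in the *Sca*/+ posterior, *Sca*/+ anterior and WT anterior pairs. *SLC6A12* was also above WT in each *Sca*/+ tissue, with the widest difference in anterior mesenchyme (1.62, 0.90 to 2.36). *SLC6A8*, the creatine carrier, had 23.4, 14.3 and 68.5 CPM in *Sca*/+ anterior epithelium and the anterior and posterior mesenchymes, against 56.7, 51.2 and 59.3 CPM in the same WT tissues, and 15.6 CPM in *Sca*/+ posterior epithelium. It was lower than WT in *Sca*/+ anterior epithelium (-1.27, -1.82 to -0.74) and anterior mesenchyme (-1.84, -2.91 to -0.91) and not in posterior mesenchyme (0.21, -0.24 to 0.67). *SLC6A9*, a glycine carrier, had 8.30, 14.3 and 22.1 CPM in *Sca*/+ anterior epithelium and the anterior and posterior mesenchymes, against 26.2, 8.66 and 12.1 CPM in the same WT tissues, and 19.0 CPM in *Sca*/+ posterior epithelium. This gene was lower in *Sca*/+ anterior epithelium than in WT (-1.66, -2.58 to -0.79). *SLC6A6*, the taurine carrier, was the member with the narrowest distance between groups, at 539 to 749.5 CPM, 0.48 log2 units.

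*SLC43A3*, a purine base carrier, was highest in *Sca*/+ anterior mesenchyme. It had 15.9, 8.30 and 16.3 CPM in *Sca*/+ posterior, *Sca*/+ anterior and WT anterior epithelium, against 47.0, 146 and 83.0 CPM in the mesenchyme beside each, and 69.5 CPM in WT posterior mesenchyme. Epithelium minus mesenchyme was -1.57 (-2.10 to -1.05), -4.13 (-4.96 to -3.39) and -2.35 (-3.06 to -1.69) in the *Sca*/+ posterior, *Sca*/+ anterior and WT anterior pairs. Endothelial markers moved the same way between compartments: 10, 10 and 9 of 10 were lower in epithelium in these pairs, against 13.7%, 14.3% and 12.7% of all genes. The summed level of 11 was 99.8, 46.4 and 135 CPM in *Sca*/+ posterior, *Sca*/+ anterior and WT anterior epithelium, against 2124, 1826 and 1475 CPM in the mesenchyme beside each and 3192 CPM in WT posterior mesenchyme. Of the 17 endothelial markers listed, 11 have a value. Their part in the difference of *SLC43A3* and of the other mesenchymal members was not tested.

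Monocarboxylate carriers (*SLC16*) had the lowest medians by genotype of any family with at least 5 members kept in anterior mesenchyme. Their 6 kept members had medians of -0.60, -1.09 and -0.84 for anterior epithelium, anterior mesenchyme and posterior mesenchyme, against 0.00, 0.04 and 0.00 over all genes. *SLC16A3*, which exports lactate from glycolytic cells, had 26.4, 5.20 and 12.5 CPM in *Sca*/+ anterior epithelium and the anterior and posterior mesenchymes, against 74.4, 87.3 and 22.2 CPM in the same WT tissues, and 8.71 CPM in *Sca*/+ posterior epithelium. Both WT anterior tissues were far above the other 5 groups. *Sca*/+ minus WT was -4.07 (-5.97 to -2.68) in anterior mesenchyme, the lowest value of any member kept in the 3 tissues, -1.50 (-2.00 to -1.01) in anterior epithelium and -0.84 (-1.74 to 0.06) in posterior mesenchyme. The first of these rests on very few steps in *Sca*/+ anterior mesenchyme, the group with the fewest steps in all. *SLC16A1*, which carries lactate and pyruvate in either direction, had 8.79, 10.4 and 3.40 CPM in *Sca*/+ anterior epithelium and the anterior and posterior mesenchymes, against 14.2, 28.1 and 16.7 CPM in the same WT tissues, and 7.47 CPM in *Sca*/+ posterior epithelium. Its differences were -0.69 (-1.69 to 0.30), -1.44 (-2.74 to -0.32) and -2.30 (-3.92 to -0.90), all below 0.

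*BSG*, the chaperone that brings both lactate carriers to the cell surface, was not lower with them. It had 304, 264 and 241 CPM in *Sca*/+ anterior epithelium and the anterior and posterior mesenchymes, against 171, 185 and 214 CPM in the same WT tissues, and 216 CPM in *Sca*/+ posterior epithelium. Genes of glycolysis, a list of 16 kept, had medians of 0.43, 0.03 and 0.46 in the 3 genotype comparisons, with 3, 0 and 1 higher and 2, 1 and 2 lower in *Sca*/+. These are 18.8%, 0% and 6.25% higher and 12.5%, 6.25% and 12.5% lower, against 12.2%, 11.5% and 8.82% of all genes higher and 10.0%, 8.37% and 8.13% lower.

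*SLC16A6*, a ketone body carrier, ran in opposite directions by jaw position. It had 36.1, 27.3 and 50.4 CPM in *Sca*/+ anterior epithelium and the anterior and posterior mesenchymes, against 51.7, 99.6 and 17.6 CPM in the same WT tissues, and 26.8 CPM in *Sca*/+ posterior epithelium. *Sca*/+ minus WT was -1.87 (-2.60 to -1.20) in anterior and 1.52 (0.79 to 2.32) in posterior mesenchyme, and posterior minus anterior in WT mesenchyme was -2.50 (-3.27 to -1.80). *SLC16A9*, which exports carnitine, had 11.5, 26.4 and 26.2 CPM in *Sca*/+ posterior, *Sca*/+ anterior and WT anterior epithelium, against 3.97, 7.81 and 12.3 CPM in the mesenchyme beside each, and 17.6 CPM in WT posterior mesenchyme. It was higher in epithelium in each pair and lower than WT in *Sca*/+ posterior mesenchyme (-2.15, -3.64 to -0.84). Leukocyte markers were also highest in WT anterior mesenchyme, where the summed level of 5 was 510.3 CPM, with 272, 124 and 133 CPM in *Sca*/+ anterior, *Sca*/+ posterior and WT posterior mesenchyme and 56.6 to 128 CPM in epithelium. Of 17 leukocyte markers listed 5 have a value, and all 4 that were kept were lower in posterior than in anterior WT mesenchyme, against 7.97% of all genes. Their part in the levels of *SLC16A3*, *SLC16A6*, *SLC1A2* and *SLC7A5* was not tested.

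**Figure D3:**
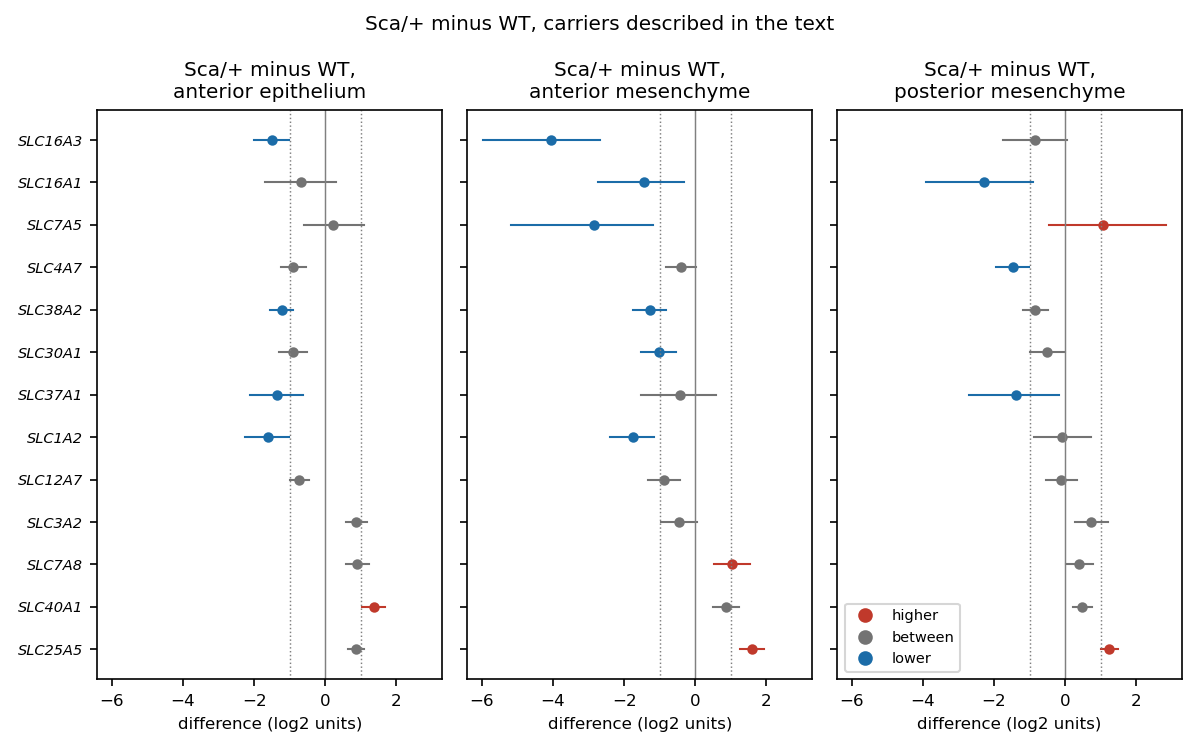
Difference of *Sca*/+ minus WT in log2 units (horizontal axis) with 95% counting intervals for 13 carriers described in the text, for anterior epithelium, anterior mesenchyme and posterior mesenchyme from left to right. Blue points are at -1 or less, red points at 1 or more and grey points between. *SLC16A3* lies at -1.50, -4.07 and -0.84, and *SLC25A5*, the lowest row, at 0.85, 1.60 and 1.24.

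Organic ion carriers held a few members with wide differences at low counts. *SLC47A1*, which extrudes organic cations and drugs, had 3.40 and 9.27 CPM in *Sca*/+ and WT posterior mesenchyme, against 31.2 and 13.0 CPM in *Sca*/+ and WT anterior mesenchyme, and 24.6, 38.6 and 27.6 CPM in *Sca*/+ posterior, *Sca*/+ anterior and WT anterior epithelium. It was lower in posterior than in anterior *Sca*/+ mesenchyme (-3.20, -4.78 to -1.87) and higher in epithelium in the *Sca*/+ posterior pair (2.85, 1.67 to 4.34). *SLC22A17*, a receptor for lipocalin, had 25.9 CPM in *Sca*/+ anterior epithelium, against 8.50 CPM in that of WT (1.61, 0.68 to 2.65) and 13.0 to 22.4 CPM in the other groups. *SLC22A15*, of uncertain substrate, had 44.0, 28.6 and 13.6 CPM in *Sca*/+ anterior epithelium and the anterior and posterior mesenchymes, against 65.9, 46.9 and 33.4 CPM in the same WT tissues, and 14.6 CPM in *Sca*/+ posterior epithelium. It was lower in posterior than in anterior *Sca*/+ epithelium (-1.59, -2.13 to -1.06), and below WT in each *Sca*/+ tissue.

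Among the sugar carriers, the members described differed by compartment. *SLC2A10*, a member of the glucose carrier family that is mutated in a human disorder of arteries, was low in every epithelium, with 2.49, 4.88 and 1.42 CPM in *Sca*/+ posterior, *Sca*/+ anterior and WT anterior epithelium, against 24.9, 29.9 and 13.0 CPM in the mesenchyme beside each, and 13.9 CPM in WT posterior mesenchyme. Epithelium minus mesenchyme was -3.32 (-4.62 to -2.22), -2.62 (-3.85 to -1.49) and -3.19 (-6.35 to -1.13), and the distance between its highest and lowest group, 4.40 log2 units, was the widest of the 140 members. *SLC2A10* was kept only through its mesenchymal groups. *SLC45A3*, a sugar carrier-like protein known from prostate, also was lower in epithelium in each pair, with 12.4, 14.2 and 20.5 CPM in *Sca*/+ posterior, *Sca*/+ anterior and WT anterior epithelium, against 83.8, 69.0 and 47.6 CPM in the mesenchyme beside each, and 73.2 CPM in WT posterior mesenchyme. *SLC2A9*, a urate carrier, was higher in epithelium in the *Sca*/+ posterior and WT anterior pairs. It had 68.1, 33.2 and 50.3 CPM in *Sca*/+ posterior, *Sca*/+ anterior and WT anterior epithelium, against 17.0, 24.7 and 18.8 CPM in the mesenchyme beside each, and 26.0 CPM in WT posterior mesenchyme. Its differences by compartment were 2.00 (1.45 to 2.60), 0.43 (-0.33 to 1.24) and 1.42 (0.76 to 2.13). The insulin-dependent carrier *SLC2A4* had 3.90 to 14.6 CPM over the 7 groups and was not kept.

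Sugar phosphate exchangers (*SLC37*) were below WT in *Sca*/+ anterior epithelium in 4 of 4 members, with a median of -1.12. Of 9987 genes, 4962 were below WT there. *SLC37A2*, known from macrophages, had 70.8, 33.8 and 20.4 CPM in *Sca*/+ anterior epithelium and the anterior and posterior mesenchymes, against 118, 78.7 and 30.6 CPM in the same WT tissues, and 14.3 CPM in *Sca*/+ posterior epithelium. It was lower in *Sca*/+ posterior than in *Sca*/+ anterior epithelium (-2.31, -2.82 to -1.82), and below WT with differences of -0.73 (-1.06 to -0.40), -1.22 (-1.89 to -0.59) and -0.59 (-1.31 to 0.14) in the 3 tissues. *SLC37A4*, which brings glucose 6-phosphate into the endoplasmic reticulum, had 4.88, 9.11 and 17.0 CPM in *Sca*/+ anterior epithelium and the anterior and posterior mesenchymes, against 17.0, 6.50 and 7.42 CPM in the same WT tissues, and 13.1 CPM in *Sca*/+ posterior epithelium. *SLC37A1*, named after its values were seen, had 12.2, 15.6 and 5.67 CPM in *Sca*/+ anterior epithelium and the anterior and posterior mesenchymes, against 31.2, 20.9 and 14.8 CPM in the same WT tissues, and 5.29 CPM in *Sca*/+ posterior epithelium. *SLC37A3* had 10.7, 36.4 and 27.2 CPM in *Sca*/+ anterior epithelium and the anterior and posterior mesenchymes, against 19.8, 24.5 and 11.1 CPM in the same WT tissues, and 8.71 CPM in *Sca*/+ posterior epithelium. Of these, *SLC37A1* was below WT in all 3 tissues, and *SLC37A3* and *SLC37A4* were higher than WT in *Sca*/+ posterior mesenchyme (1.29, 0.36 to 2.34, and 1.20, 0.04 to 2.53).

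Nucleotide sugar carriers of the Golgi (*SLC35A*) feed the enzymes that build glycans. *SLC35A1*, which carries CMP-sialic acid, had 7.33 CPM in *Sca*/+ anterior epithelium, against 29.8 CPM in WT anterior epithelium (-2.02, -2.98 to -1.14). It had 23.6 CPM in *Sca*/+ posterior epithelium and 16.9 to 31.2 CPM in mesenchyme, so that *Sca*/+ anterior epithelium stood alone. *SLC35A2*, which carries UDP-galactose, had 40.0, 27.3 and 43.0 CPM in *Sca*/+ anterior epithelium and the anterior and posterior mesenchymes, against 26.9, 26.7 and 15.8 CPM in the same WT tissues, and 21.5 CPM in *Sca*/+ posterior epithelium. This gene was higher in *Sca*/+ than in WT posterior mesenchyme (1.45, 0.68 to 2.30).

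Among metal carriers, *SLC40A1*, the only known exporter of iron from cells, was above WT in each *Sca*/+ tissue. It had 180.2, 176 and 222 CPM in *Sca*/+ anterior epithelium and the anterior and posterior mesenchymes, against 70.1, 96.0 and 159 CPM in the same WT tissues, and 115 CPM in *Sca*/+ posterior epithelium. The differences were 1.36 (1.04 to 1.70), 0.87 (0.52 to 1.23) and 0.49 (0.22 to 0.75), with intervals above 0 in all 3 tissues and only the first past 1 log2 unit. In a list of 12 kept genes of iron and zinc handling, the iron store *FTH1* moved the same way, with 530.4, 1009.5 and 929 CPM in *Sca*/+ anterior epithelium and the anterior and posterior mesenchymes, against 178, 401 and 517 CPM in the same WT tissues, and 585 CPM in *Sca*/+ posterior epithelium. Of the 12, 3, 2 and 1 were higher and 2, 4 and 1 lower in the 3 tissues. These are 25%, 16.7% and 8.33% higher and 16.7%, 33.3% and 8.33% lower, against 12.2%, 11.5% and 8.82% of all genes higher and 10.0%, 8.37% and 8.13% lower. The iron oxidase *CP*, which acts beside *SLC40A1*, had 40.0, 830.0 and 90.6 CPM in *Sca*/+ anterior epithelium and the anterior and posterior mesenchymes, against 489.5, 2273 and 67.7 CPM in the same WT tissues, and 34.8 CPM in *Sca*/+ posterior epithelium. It was lower in *Sca*/+ than in WT in both anterior tissues. *SLC11A2*, which imports iron, had 67.4, 72.8 and 28.3 CPM in *Sca*/+ anterior epithelium and the anterior and posterior mesenchymes, against 86.4, 59.2 and 47.3 CPM in the same WT tissues, and 61.9 CPM in *Sca*/+ posterior epithelium. It stayed within 1 log2 unit of WT.

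The *SLC39* family holds zinc importers and the *SLC30* family zinc exporters. In posterior mesenchyme 7 of 8 kept *SLC39* members were below WT, with a median of -0.65, where 4999 of 9987 genes were below WT. Of the 8, 3 were lower and 0 higher (37.5% and 0%), against 8.13% and 8.82% of all genes. In anterior mesenchyme the differences of these 8 ran from -1.56 to 1.38 log2 units. In anterior epithelium 6 of 6 *SLC30* members were below WT, with a median of -0.74, where 4962 of 9987 genes were below WT. In the mesenchymes *SLC30* members lay on both sides of WT. Their differences ran from -1.03 to 0.47 log2 units in anterior and from -0.73 to 0.36 in posterior mesenchyme. *SLC39A14*, which imports zinc, manganese and iron, had 20.5, 11.7 and 4.53 CPM in *Sca*/+ anterior epithelium and the anterior and posterior mesenchymes, against 22.7, 17.3 and 22.2 CPM in the same WT tissues, and 13.1 CPM in *Sca*/+ posterior epithelium. Its level was lower in *Sca*/+ than in WT posterior mesenchyme (-2.30, -3.66 to -1.09). *SLC39A13*, an intracellular zinc carrier whose loss in humans impairs connective tissue and teeth, had 46.9, 46.8 and 34.6 CPM in *Sca*/+ anterior epithelium and the anterior and posterior mesenchymes, against 48.9, 32.5 and 70.5 CPM in the same WT tissues, and 51.3 CPM in *Sca*/+ posterior epithelium. WT posterior mesenchyme was its highest group, and *Sca*/+ minus WT there was -1.03 (-1.54 to -0.52). *SLC39A8*, a relative of *SLC39A14*, was higher in epithelium in all 3 pairs, with 55.7, 75.2 and 86.4 CPM in *Sca*/+ posterior, *Sca*/+ anterior and WT anterior epithelium, against 16.4, 31.2 and 34.6 CPM in the mesenchyme beside each, and 22.2 CPM in WT posterior mesenchyme. The differences by compartment were 1.76 (1.19 to 2.38), 1.27 (0.64 to 1.95) and 1.32 (0.83 to 1.83).

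*SLC30A7*, which loads zinc into the Golgi, had 17.1 CPM in *Sca*/+ anterior epithelium, against 46.0 CPM in WT anterior epithelium (-1.43, -2.07 to -0.82). The other 5 groups lay between 60.7 and 82.1 CPM. *SLC30A1*, which removes zinc at the cell surface and was named after its values were seen, had 45.9, 59.8 and 43.6 CPM in *Sca*/+ anterior epithelium and the anterior and posterior mesenchymes, against 85.7, 122 and 62.1 CPM in the same WT tissues, and 44.5 CPM in *Sca*/+ posterior epithelium. Its differences were -0.90 (-1.31 to -0.50), -1.03 (-1.53 to -0.55) and -0.51 (-1.00 to -0.02). The copper importer *SLC31A1* was, like *SLC30A7*, lowest in *Sca*/+ anterior epithelium. It had 14.6 CPM in *Sca*/+ posterior epithelium, against 3.91 CPM in *Sca*/+ anterior epithelium (1.90, 0.81 to 3.20), with 9.21 CPM in WT anterior epithelium and 11.1 to 23.2 CPM in mesenchyme. *SLC30A5*, another Golgi zinc carrier, stayed between 67.4 and 106 CPM.

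Vitamin carriers included those of folate and thiamine. *SLC46A1*, which takes up folate at acid pH, had 14.6, 24.4 and 9.21 CPM in *Sca*/+ posterior, *Sca*/+ anterior and WT anterior epithelium, against 3.40, 10.4 and 2.89 CPM in the mesenchyme beside each, and 12.1 CPM in WT posterior mesenchyme. It was higher in epithelium in all 3 pairs, higher in *Sca*/+ than in WT anterior epithelium (1.41, 0.50 to 2.41) and lower in *Sca*/+ than in WT posterior mesenchyme (-1.83, -3.51 to -0.33). *SLC19A1*, the reduced folate carrier, had 4.53 and 13.0 CPM in *Sca*/+ and WT posterior mesenchyme, against 27.3 and 6.50 CPM in *Sca*/+ and WT anterior mesenchyme, and 14.3, 22.0 and 13.5 CPM in *Sca*/+ posterior, *Sca*/+ anterior and WT anterior epithelium. *Sca*/+ anterior mesenchyme was the highest group and *Sca*/+ posterior mesenchyme the lowest, a difference of -2.59 (-3.98 to -1.36). *SLC19A2*, which carries thiamine, had 8.09, 20.0 and 24.1 CPM in *Sca*/+ posterior, *Sca*/+ anterior and WT anterior epithelium, against 13.6, 3.90 and 15.2 CPM in the mesenchyme beside each, and 28.7 CPM in WT posterior mesenchyme, with its lowest value in *Sca*/+ anterior mesenchyme. *SLC46A3*, a lysosomal relative, had 5.60, 5.37 and 4.96 CPM in *Sca*/+ posterior, *Sca*/+ anterior and WT anterior epithelium, against 14.2, 26.0 and 27.4 CPM in the mesenchyme beside each, and 32.4 CPM in WT posterior mesenchyme. It was lower in epithelium in each pair.

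Lipid and choline carriers included *SLC44A5* and *SLC27A3*. *SLC44A5*, of the choline carrier family, had 28.3, 13.0 and 60.6 CPM in *Sca*/+ anterior epithelium and the anterior and posterior mesenchymes, against 12.8, 68.6 and 52.8 CPM in the same WT tissues, and 24.3 CPM in *Sca*/+ posterior epithelium. *Sca*/+ minus WT was -2.40 (-3.50 to -1.46) in anterior mesenchyme and 1.15 (0.37 to 2.00) in anterior epithelium. *SLC27A3* and *SLC27A4*, which activate fatty acids on uptake, were both higher in *Sca*/+ anterior mesenchyme (1.81, 0.95 to 2.72, and 1.02, -0.53 to 2.59), although the second interval includes 0. *SLC27A3* had 32.2, 45.5 and 39.1 CPM in *Sca*/+ anterior epithelium and the anterior and posterior mesenchymes, against 23.4, 13.0 and 35.2 CPM in the same WT tissues, and 18.7 CPM in *Sca*/+ posterior epithelium. *SLC27A4* had 21.0, 11.7 and 5.10 CPM in *Sca*/+ anterior epithelium and the anterior and posterior mesenchymes, against 18.4, 5.77 and 8.34 CPM in the same WT tissues, and 18.7 CPM in *Sca*/+ posterior epithelium. *SLC33A1*, which carries acetyl-CoA into the endoplasmic reticulum, had 19.3 and 13.0 CPM in *Sca*/+ and WT posterior mesenchyme, against 22.1 and 57.7 CPM in *Sca*/+ and WT anterior mesenchyme, and 23.0, 44.4 and 52.4 CPM in *Sca*/+ posterior, *Sca*/+ anterior and WT anterior epithelium. This gene was lower in posterior than in anterior WT mesenchyme (-2.15, -3.09 to -1.32). *SLC44A3* was lower in *Sca*/+ than in WT anterior epithelium (-1.14, -2.01 to -0.31), at 10.3 and 22.7 CPM in *Sca*/+ and WT. *SLC44A2*, in contrast, stayed between 245 and 383 CPM in the 7 groups.

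Across families, 4 members were higher in epithelium in all 3 pairs (2.86%, against 1.55% of all genes): *SLC16A9*, *SLC26A2*, *SLC39A8* and *SLC46A1*. For *SLC46A1* the interval of the WT anterior pair includes 0 (1.67, -0.02 to 3.75). Lower in epithelium in all 3 pairs were 7 members (5.0%, against 6.07% of all genes): *SLC1A2*, *SLC29A1*, *SLC2A10*, *SLC43A3*, *SLC45A3*, *SLC46A3* and *SLC6A12*. Of these 11 members, *SLC46A1*, *SLC2A10* and *SLC6A12* were kept only through the groups in which they were high. The share of members that were lower is thus near that of all genes.

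**Figure D4:**
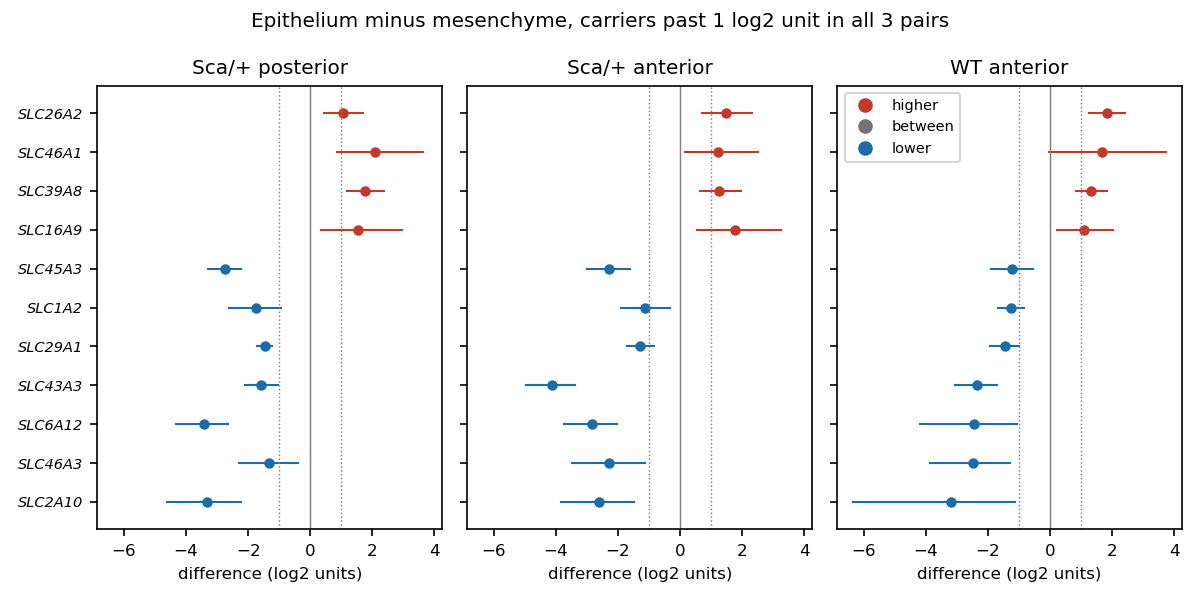
Difference of epithelium minus mesenchyme in log2 units (horizontal axis) with 95% counting intervals for the 11 carriers past 1 log2 unit in the same direction in every pair. The panels run from left to right through the *Sca*/+ posterior, the *Sca*/+ anterior and the WT anterior pair. Red points are higher in epithelium and blue points lower. *SLC43A3* in the *Sca*/+ anterior pair is the lowest at -4.13, and *SLC26A2* in the WT anterior pair is at 1.83.

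Members of the mitochondrial carrier family *SLC25* varied less than those of the other families, and their medians by genotype were above 0. Of 27 kept, 2, 4 and 5 were higher and 2, 1 and 3 lower in *Sca*/+ than in WT for anterior epithelium, anterior mesenchyme and posterior mesenchyme. These are 7.41%, 14.8% and 18.5% higher and 7.41%, 3.70% and 11.1% lower, against 12.2%, 11.5% and 8.82% of all genes higher and 10.0%, 8.37% and 8.13% lower. Their medians were 0.15, 0.36 and 0.18, with 15, 20 and 15 of 27 above 0, where 5025, 5250 and 4972 of 9987 genes were above 0. The 113 members of other families had medians of -0.25, -0.15 and -0.16. Between positions the median of *SLC25* was -0.42 in *Sca*/+ mesenchyme, -0.04 in WT mesenchyme and -0.01 in *Sca*/+ epithelium. In *Sca*/+ mesenchyme 1 member was higher and 5 lower at the posterior site (3.70% and 18.5%), against 8.34% and 10.4% of all genes.

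*SLC25A5*, a carrier that exchanges ATP for ADP across the inner membrane, had 296, 272 and 430.0 CPM in *Sca*/+ anterior epithelium and the anterior and posterior mesenchymes, against 164, 89.5 and 182 CPM in the same WT tissues, and 384 CPM in *Sca*/+ posterior epithelium. Every *Sca*/+ value was above every WT value, and *Sca*/+ minus WT was 0.85 (0.63 to 1.08), 1.60 (1.28 to 1.94) and 1.24 (1.01 to 1.48). It has paralogs (*SLC25A4* and *SLC25A31* in the RefSeq annotation of the species), whose likeness in sequence was not measured. Reads may have been divided between them, so its level is uncertain. *SLC25A3*, the phosphate carrier that supplies the same ATP synthesis, had 294, 229 and 298 CPM in *Sca*/+ anterior epithelium and the anterior and posterior mesenchymes, against 265, 204 and 202 CPM in the same WT tissues, and 399 CPM in *Sca*/+ posterior epithelium. Its differences were 0.15 (-0.04 to 0.34), 0.16 (-0.12 to 0.44) and 0.56 (0.33 to 0.79). *SLC25A20*, which brings acylcarnitines in for fatty acid oxidation, was above WT by 0.86 (0.25 to 1.49), 0.47 (-0.38 to 1.30) and 0.86 (0.25 to 1.51), at 41.0, 29.9 and 50.4 CPM in *Sca*/+ against 22.7, 21.6 and 27.8 CPM in WT.

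*SLC25A18*, a glutamate carrier, was lowest in WT posterior mesenchyme, with 46.4, 37.7 and 26.1 CPM in *Sca*/+ anterior epithelium and the anterior and posterior mesenchymes, against 32.6, 19.5 and 10.2 CPM in the same WT tissues, and 50.1 CPM in *Sca*/+ posterior epithelium. *SLC25A37*, the carrier that supplies iron for heme in red cell precursors, had 12.2, 53.3 and 9.06 CPM in *Sca*/+ anterior epithelium and the anterior and posterior mesenchymes, against 30.5, 23.1 and 25.0 CPM in the same WT tissues, and 11.8 CPM in *Sca*/+ posterior epithelium. *Sca*/+ anterior mesenchyme was the highest group and *Sca*/+ posterior mesenchyme the lowest. Summed erythrocyte markers were 130.3 and 134 CPM in *Sca*/+ and WT posterior mesenchyme, against 112 and 75.8 CPM in *Sca*/+ and WT anterior mesenchyme (2 of 11 markers have a value), and their part was not tested. *SLC25A28*, the second iron carrier, stayed between 12.8 and 24.7 CPM.

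Among the other mitochondrial carriers, *SLC25A11*, which exchanges oxoglutarate for malate, and *SLC25A32*, which carries folate or the cofactor FAD, were higher in *Sca*/+ than in WT anterior epithelium. *SLC25A11* had 22.9, 9.11 and 25.5 CPM in *Sca*/+ anterior epithelium and the anterior and posterior mesenchymes, against 7.79, 17.3 and 19.5 CPM in the same WT tissues, and 19.3 CPM in *Sca*/+ posterior epithelium. Its difference there was 1.56 (0.59 to 2.65). *SLC25A32* had 21.5, 15.6 and 6.23 CPM in *Sca*/+ anterior epithelium and the anterior and posterior mesenchymes, against 7.79, 7.94 and 13.9 CPM in the same WT tissues, and 9.02 CPM in *Sca*/+ posterior epithelium. The difference was 1.46 (0.49 to 2.57) in anterior epithelium. *SLC25A36*, which carries pyrimidine nucleotides, had 17.0 and 28.7 CPM in *Sca*/+ and WT posterior mesenchyme, against 57.2 and 44.8 CPM in *Sca*/+ and WT anterior mesenchyme, and 33.6, 23.9 and 46.8 CPM in *Sca*/+ posterior, *Sca*/+ anterior and WT anterior epithelium. Its level was lower in posterior than in anterior *Sca*/+ mesenchyme (-1.75, -2.47 to -1.05). *SLC25A44*, which imports branched-chain amino acids, had 2.83 and 6.49 CPM in *Sca*/+ and WT posterior mesenchyme, against 11.7 and 7.94 CPM in *Sca*/+ and WT anterior mesenchyme, and 19.9, 16.1 and 9.92 CPM in *Sca*/+ posterior, *Sca*/+ anterior and WT anterior epithelium, with the lowest value in *Sca*/+ posterior mesenchyme.

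**Figure D5:**
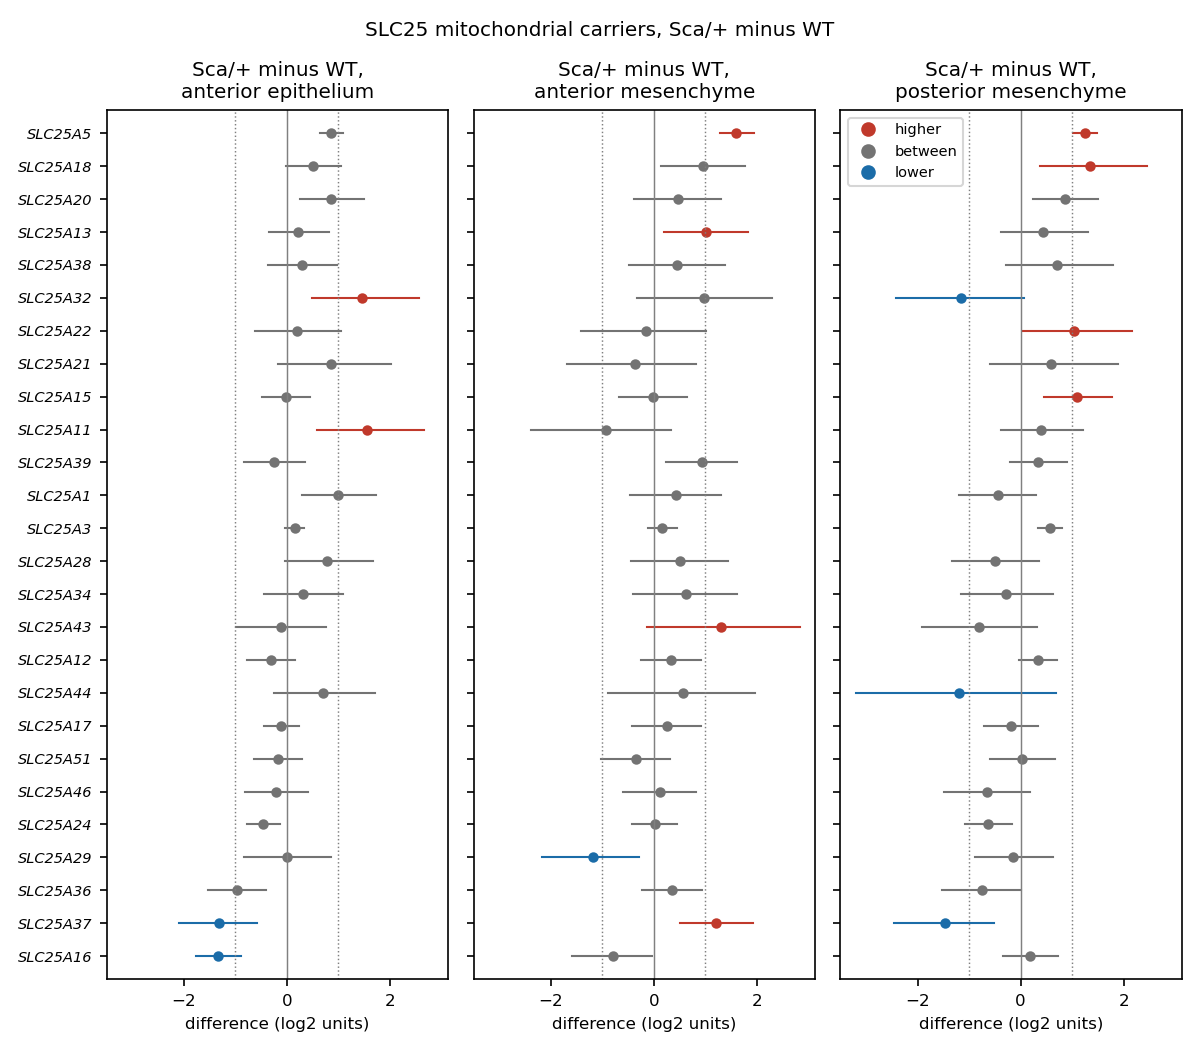
Difference of *Sca*/+ minus WT in log2 units (horizontal axis) with 95% counting intervals for 26 of the 27 *SLC25* members kept, ordered by their sum, for anterior epithelium, anterior mesenchyme and posterior mesenchyme from left to right. Blue points are at -1 or less, red points at 1 or more and grey points between. *SLC25A5* is the top row, and *SLC25A16* is the lowest row.

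The symbols that name other proteins were led by the scaffolds of sodium/proton exchangers. *SLC9A3R1* had 39.6, 9.11 and 7.36 CPM in *Sca*/+ anterior epithelium and the anterior and posterior mesenchymes, against 39.7, 41.1 and 13.0 CPM in the same WT tissues, and 18.0 CPM in *Sca*/+ posterior epithelium. This gene was lower in *Sca*/+ than in WT anterior mesenchyme (-2.18, -3.55 to -1.04). *SLC9A3R2* had 15.6, 45.5 and 47.0 CPM in *Sca*/+ anterior epithelium and the anterior and posterior mesenchymes, against 9.21, 13.0 and 45.4 CPM in the same WT tissues, and 13.4 CPM in *Sca*/+ posterior epithelium. This gene was higher there (1.81, 0.95 to 2.72). *SLC2A4RG*, a transcription factor, had 11.2, 15.6 and 20.4 CPM in *Sca*/+ anterior epithelium and the anterior and posterior mesenchymes, against 8.50, 4.33 and 8.34 CPM in the same WT tissues, and 9.02 CPM in *Sca*/+ posterior epithelium, higher in both *Sca*/+ mesenchymes. *SLC7A6OS* overlaps *SLC7A6* in the RefSeq annotation, and since the strand used in counting is not given in the sources used here, their reads cannot be told apart.

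Of the 16 members not kept, all had means under 3 log2 CPM, and *SLC19A3* had the widest distance between groups. This thiamine carrier had 1.47, 5.20 and 1.70 CPM in *Sca*/+ anterior epithelium and the anterior and posterior mesenchymes, against 37.5, 21.6 and 8.34 CPM in the same WT tissues, and 2.49 CPM in *Sca*/+ posterior epithelium. It was lower than WT in each *Sca*/+ tissue, with differences of -4.67 (-7.00 to -3.05), -2.06 (-4.02 to -0.55) and -2.29 (-4.82 to -0.29). The sugar carrier *SLC50A1* was above WT in each, with 14.7, 23.4 and 10.2 CPM in *Sca*/+ anterior epithelium and the anterior and posterior mesenchymes, against 5.67, 2.89 and 1.85 CPM in the same WT tissues, and 7.78 CPM in *Sca*/+ posterior epithelium. *SLC22A5*, the carnitine importer of the cell surface, had 3.73 to 16.7 CPM over the 7 groups. Both *SLC19A3* and *SLC50A1* were named after their values were seen.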

How the data were processed

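The authors trimmed the reads (Trimmomatic) and mapped and counted them by STAR against the genome of the species; versions, gene selection and the strand used in counting are not given in the sources used here. They deposited log2 CPM, named as a mean of normalized counts, with 1 value per gene and group (8 groups of 3 samples, 24 in all). How 3 samples became 1 value is not given, nor are the scaling factors, which enter every difference between groups. WT posterior epithelium was left out, since its column holds a running series of numbers. In the other 7 columns every CPM value was a whole multiple of 1 step within 0.0065 CPM. Steps were taken as counts (789353 to 3264515 per group) for exact Clopper-Pearson intervals of 95%, checked on simulated data, which cover counting error only and not amplification or animals. Genes averaging 3 log2 CPM or more were kept, and 9 comparisons were made with a limit of 1 log2 unit, uncentred and without a test. CPM are not scaled to gene length, so levels were compared within a gene only. Of 156 symbols 152 match the RefSeq annotation, which was used for names and neighbors.

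Members and lists were chosen with earlier results of these data known. Members described are the 5 of each direction and comparison with the largest difference past 1 log2 unit whose interval excludes 0, the member with the widest distance between groups in each family with at least 5 kept, and a set of well-known carriers; others are marked as named after their values were seen. Single values of 2 members are not reported here, though counts and medians include them. Alternatives were no filter, a minimum of 5 log2 CPM for the mean, 1 CPM added before the log2, calls only where the interval excludes 0, centring on the median of all genes, and symbols of carriers alone. Calculations used scipy 1.17.1, matplotlib 3.10.9, pandas 2.3.3 and numpy 2.4.6 under Python 3.11.15.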

Additional observations from a re-analysis of the deposited data

Results flagged for a closer look

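A few members were past 1 log2 unit in opposite directions in 2 tissues under the same contrast, with both counting intervals excluding 0. The share of all genes that did the same was not counted, so the list does not set carriers apart from genes in general. Each group has 1 value, so none of these differences between tissues was tested, and most rest on few counts.

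By genotype, *Sca*/+ minus WT was -1.32 in anterior epithelium, 1.21 in anterior mesenchyme and -1.47 in posterior mesenchyme for *SLC25A37*, the mitochondrial iron carrier. *SLC41A1* differed by 1.57 in anterior epithelium and -1.53 in anterior mesenchyme, and *SLC44A5* by 1.15 and -2.40 in these tissues. Between the mesenchymes, anterior and then posterior, the differences were -1.87 and 1.52 for *SLC16A6*, 2.07 and -1.52 for *SLC19A1*, and 1.38 and -1.45 for *SLC39A7*, which releases zinc from the endoplasmic reticulum. In anterior epithelium and posterior mesenchyme they were -1.80 and 1.20 for *SLC37A4*, and 1.41 and -1.83 for *SLC46A1*.

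By position in *Sca*/+ tissue, posterior minus anterior was -1.31 in epithelium and 1.80 in mesenchyme for *SLC19A2*. For *SLC22A23* the values were -1.33 and 3.71, and for *SLC6A4* -1.11 and 2.22. All 3 members had 2 or 3 counts in *Sca*/+ anterior mesenchyme.

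By compartment, epithelium minus mesenchyme was 1.33 in the *Sca*/+ and -1.15 in the WT anterior pair for *SLC25A11*, and 1.37 and -1.73 for *SLC41A1*. *SLC44A5* differed by -1.32, 1.12 and -2.43 in the *Sca*/+ posterior, *Sca*/+ anterior and WT anterior pairs. In the *Sca*/+ posterior and *Sca*/+ anterior pairs the differences were -1.73 and 3.32 for *SLC22A23*, 1.17 and -1.41 for *SLC39A7*, -1.11 and 2.21 for *SLC6A4*, and -1.25 and 2.09 for *SLC7A5*. Several of these comparisons share a group with those by genotype or position.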

How the results depend on the processing

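No paired analysis was possible because each group has 1 deposited value, and leaving out single samples was not possible for the same reason. With the minimum raised to 5 log2 CPM, 62 members were kept and fewer could pass the limit. In *Sca*/+ against WT, 2 members were then higher and 7 lower in anterior epithelium, 2 and 5 in anterior mesenchyme, and 3 and 2 in posterior mesenchyme. These are 3.23% and 11.3%, 3.23% and 8.06%, and 4.84% and 3.23% of the 62, against 7.50% and 7.32%, 7.28% and 5.05%, and 5.51% and 3.15% of the 5589 genes kept. At the posterior against the anterior position, 5 were higher and 3 lower in WT mesenchyme, 4 and 5 in *Sca*/+ mesenchyme, and 2 and 4 in *Sca*/+ epithelium. These are 8.06% and 4.84%, 6.45% and 8.06%, and 3.23% and 6.45%, against 5.78% and 3.99%, 4.58% and 4.12%, and 4.31% and 3.10% of all genes. In epithelium against mesenchyme, 5 were higher and 4 lower in the WT anterior pair, 6 and 9 in the *Sca*/+ anterior pair, and 6 and 9 in the *Sca*/+ posterior pair. These are 8.06% and 6.45%, 9.68% and 14.5%, and 9.68% and 14.5%, against 5.74% and 9.61%, 7.37% and 11.5%, and 7.66% and 11.2% of all genes. The members' median was -0.32 in *Sca*/+ against WT anterior epithelium and 0.04 between the positions of *Sca*/+ epithelium under this filter. The excess of lower over higher members in *Sca*/+ posterior mesenchyme was not seen among these 62. Under the other 5 alternatives all 18 counts stayed within 1.5 times. Of 518 values of named members with 1 CPM added or centred, 501 kept their side of 1 log2 unit, 17 fell below it and 0 changed sign. Depth limits members of few counts, and the spread between animals could not be measured.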
